A study of Mus musculus with 196 samples.

Results

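The genes described here are the type I keratins Krt25, Krt26, Krt27 and Krt28, the type II keratins Krt71 and Krt73, and trichohyalin, Tchh. They were taken as a named list of 7 of the 18820 genes measured, and each was read by the only probe set that named it alone. The inner root sheath is the sleeve of cells that surrounds and moulds the growing hair shaft, and it is built while hair grows (anagen) and lost when growth stops. Its keratins pair as type I with type II chains to form filaments. Trichohyalin is a matrix protein in which these filaments become embedded once it has been citrullinated and cross-linked. In human follicles the products of Krt25, Krt27, Krt28 and Krt71 lie in all layers of the sheath and those of Krt26 and Krt73 in its cuticle, and mutations of Krt25 or Krt71 give mice a wavy or curly coat.

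Skin of 100 untreated mice aged 8 weeks was measured on 196 arrays. Every mouse was a backcross animal, born to a hybrid mother (FVB/N female by Mus spretus male) and an FVB/N father, and was therefore genetically distinct. The groups were tail skin (97 arrays, from 48 females and 49 males), dorsal skin labelled anagen (14 arrays, 8 females and 6 males) and dorsal skin labelled non-anagen (85 arrays, 41 females and 44 males). Both tissues were measured in 96 mice. Dorsal skin had been shaved and both tissues snap frozen. How the anagen label was assigned is not given in the sources used here, and tail arrays carried no hair cycle label. If the label rested on the expression of hair genes, the anagen minus non-anagen differences below would follow from it and test nothing. Dorsal and tail arrays lay in different batches, so the effects of batch and tissue cannot be told apart, whereas all anagen arrays shared batch 1 with 75 of the non-anagen arrays. The labels of the tissues fitted 4 posterior Hox genes, whose mean per array was between 8.45 and 9.42 in tail skin, between 5.10 and 6.09 in anagen and between 5.18 and 6.30 in non-anagen skin. Epidermal markers (5 of a list of 6 measured) were high in all groups, with a mean of 12.37 in tail, 12.05 in anagen and 12.19 in non-anagen skin. In such bulk samples fewer sheath cells and less RNA per cell cannot be told apart.

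The 4 type I genes lie next to each other on chromosome 11, and Krt71 and Krt73 lie on chromosome 15 with Krt72 between them. The sequences just before their starts are shown, from RefSeq on build GRCm38.p6. They come from the reference genome and not from the mice measured, whose alleles were those of FVB/N and Mus spretus. For the type I genes the 160 bases before the start of each gene are given 5′ to 3′ on its own (minus) strand, at chr11:99322952-99323111 for Krt25, chr11:99337966-99338125 for Krt26, chr11:99351119-99351278 for Krt27 and chr11:99374904-99375063 for Krt28. Capitals mark TATAAA, the core promoter motif, and an 11-base run of the form TCNNCCANTTA. In Krt26 TATAAA begins at base -30, and a further match to its letters begins at -158, far from the start.
Krt25: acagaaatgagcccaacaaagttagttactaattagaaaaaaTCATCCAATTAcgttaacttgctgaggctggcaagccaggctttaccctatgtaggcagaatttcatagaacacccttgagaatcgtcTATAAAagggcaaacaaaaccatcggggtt
Krt26: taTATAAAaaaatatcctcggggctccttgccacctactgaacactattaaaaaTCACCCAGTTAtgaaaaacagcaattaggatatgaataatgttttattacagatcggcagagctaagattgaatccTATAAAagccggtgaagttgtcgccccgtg
Krt27: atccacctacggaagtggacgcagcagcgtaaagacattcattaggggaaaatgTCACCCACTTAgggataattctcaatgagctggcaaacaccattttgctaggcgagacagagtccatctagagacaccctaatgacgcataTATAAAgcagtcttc
Krt28: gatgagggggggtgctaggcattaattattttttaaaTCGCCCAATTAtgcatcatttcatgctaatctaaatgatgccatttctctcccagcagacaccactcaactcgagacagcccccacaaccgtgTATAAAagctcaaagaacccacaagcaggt

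The run TCNNCCANTTA was chosen after the sequences had been read, so its presence in these members is no test. Searched on both strands of the 250 bases before the start, it was present in 4 of 7 members, all of them type I, against 0.548% of 32851 promoters. Counted from the start of the gene, it began at base -118 in Krt25 as TCATCCAATTA, at -106 in Krt26 as TCACCCAGTTA, at -106 in Krt27 as TCACCCACTTA and at -123 in Krt28 as TCGCCCAATTA. It can overlap TAATTG read on the other strand. The core motif TATAAA was present in 6 of 7 members, all but Tchh, against 12.4% of promoters.

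For the type II genes the 240 bases before the start are shown, at chr15:101743098-101743337 for Krt71 and chr15:101802361-101802600 for Krt73, also on the minus strand. Capitals mark TATAAA and the runs of at least 9 bases that both share in the same order.
Krt71: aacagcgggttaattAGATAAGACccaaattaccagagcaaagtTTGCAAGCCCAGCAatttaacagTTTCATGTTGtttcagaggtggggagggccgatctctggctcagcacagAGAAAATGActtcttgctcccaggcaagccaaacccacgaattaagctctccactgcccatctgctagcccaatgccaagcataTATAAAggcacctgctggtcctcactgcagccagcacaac
Krt73: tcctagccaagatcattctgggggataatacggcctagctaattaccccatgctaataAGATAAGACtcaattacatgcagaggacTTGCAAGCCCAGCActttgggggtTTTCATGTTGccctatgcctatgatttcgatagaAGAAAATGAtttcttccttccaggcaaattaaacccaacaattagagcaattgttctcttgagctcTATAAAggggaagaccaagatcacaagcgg

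The longest shared run, TTGCAAGCCCAGCA, was 14 bases long and began at base -196 in Krt71 and at -154 in Krt73. AGATAA, a motif of GATA factors, was present in 5 of 7 members (Krt25, Krt27, Krt71, Krt73 and Tchh) against 9.99% of promoters. The homeodomain motif TAATTA was present in 4 of 7 members against 4.84%, and TAATTG in 4 of 7 against 7.17%. CTTTGA was found in 2 members against 13.8%, CTTTGT in 1 against 16.5% and TGTTTA in 2 against 12%, while GCCNNNGGC and TGANTCA were in 0 of 7 members, against 13.7% and 6.75% of promoters. These matches describe letters only and are no evidence of binding. The members include neighbouring genes of the same keratin type, so they are not independent draws from all promoters. Whether shared letters bear on how the genes varied across mice was not tested.

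All values below are log2 expression on the array's scale, on which the median of all gene means was 6.49, and levels are compared between groups for the same gene only. Krt71, the broad type II keratin of the sheath, had a lowest, median and highest value of 7.11, 11.27 and 12.26 in tail skin, 6.84, 10.71 and 12.69 in anagen dorsal skin and 4.50, 5.29 and 6.52 in non-anagen dorsal skin. Krt25, a type I keratin of all sheath layers, had 6.89, 11.12 and 12.11 in tail, 7.10, 10.21 and 12.53 in anagen skin and 4.23, 5.04 and 6.56 in non-anagen dorsal skin. For both genes, every one of the 97 tail and 14 anagen arrays lay above the highest non-anagen array. They were the only members whose groups were fully apart in this way.

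Krt27, another type I keratin of all sheath layers, had a lowest, median and highest value of 5.84, 9.60 and 11.04 in tail, 6.03, 9.97 and 12.40 in anagen skin and 4.03, 5.0 and 6.25 in non-anagen dorsal skin. Tchh had 6.35, 10.24 and 11.33 in tail, 7.16, 10.96 and 12.83 in anagen skin and 5.04, 6.43 and 8.25 in non-anagen dorsal skin. Krt73 had 6.09, 9.36 and 10.98 in tail, 4.88, 8.49 and 11.70 in anagen skin and 4.20, 4.88 and 6.49 in non-anagen dorsal skin. For these 3 genes the groups overlapped: 96, 89 and 96 tail arrays and 12, 10 and 10 anagen arrays, for Krt27, Tchh and Krt73 in that order, exceeded the highest non-anagen array. Krt26 had 3.97, 6.77 and 8.41 in tail, 3.89, 7.47 and 11.37 in anagen skin and 3.13, 3.92 and 5.21 in non-anagen dorsal skin. Krt28 had 4.85, 6.96 and 8.68 in tail, 4.49, 6.90 and 11.00 in anagen skin and 3.56, 4.41 and 5.81 in non-anagen dorsal skin. The groups overlapped for these 2 genes too, with 89 and 82 tail arrays and 9 and 8 anagen arrays above the highest non-anagen array, for Krt26 and Krt28 in that order. No tail array exceeded the highest anagen array for any member.

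**Figure D1:**
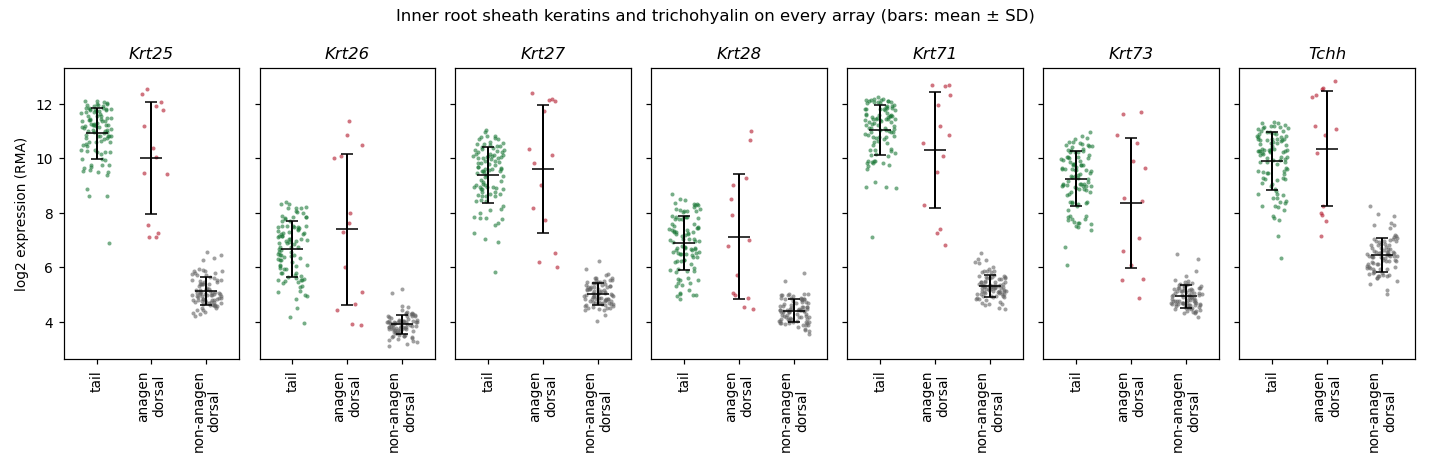
Log2 expression (vertical axis) of each member on every array, 1 point per array, in tail skin (97), anagen dorsal skin (14) and non-anagen dorsal skin (85), with bars for the mean ± SD. The non-anagen arrays form a tight low band for each gene, and the anagen arrays span the widest range.

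The first comparison asked how these genes differ between dorsal skin in and out of the growth phase. Krt71 averaged 10.30 ± 2.13 in the 14 anagen arrays and 5.32 ± 0.42 in the 85 others (SD), and Krt25 averaged 10.01 ± 2.06 and 5.13 ± 0.51 in the same groups. In a limma fit with sex and batch as covariates and 1 estimate of the spread per gene for all groups, a gene was called when its Benjamini-Hochberg adjusted p over all genes was under 0.05 and its difference at least 1 on the log2 scale, that is 2-fold. All 7 members were called higher in anagen skin, against 0.68% of genes called higher. The log2 differences were 4.97 for Krt71 (SE 0.26, 31.4-fold), 4.86 for Krt25 (SE 0.26), 4.57 for Krt27 (SE 0.28), 3.94 for Tchh (SE 0.29), 3.50 for Krt26 (SE 0.30), 3.46 for Krt73 (SE 0.28) and 2.74 for Krt28 (SE 0.27, 6.66-fold).

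That shared spread was smaller than the members' own spread in anagen skin, so its errors are too small for them. A test added after the data had been seen gave each group its own spread (an unequal-variance test of every gene, adjusted over all genes). With it, 4 members rose in anagen skin, against 0.0956% of genes (18 of 18820) called higher: Krt71 by 4.98 (SE 0.57, adjusted p = 0.00754), Krt25 by 4.88 (SE 0.55, adjusted p = 0.00754), Krt27 by 4.57 (SE 0.63, adjusted p = 0.0130) and Tchh by 3.90 (SE 0.57, adjusted p = 0.0183). The other members missed the threshold, with differences of 3.43 for Krt73 (adjusted p = 0.0633), 3.50 for Krt26 (adjusted p = 0.0961) and 2.72 for Krt28 (adjusted p = 0.122). Their 95% intervals, not adjusted for the number of genes, were 2.04 to 4.81, 1.90 to 5.10 and 1.40 to 4.05 in the same order. Thus Krt71, Krt25, Krt27 and Tchh were called under both treatments of the spread, and Krt73, Krt26 and Krt28 under the shared spread only.

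The 14 anagen arrays differed widely among themselves and formed a graded series rather than a uniform high group. On 8 arrays all 7 members exceeded the highest non-anagen array, on 1 array 6 did, on 1 array 5, on 2 arrays 3 and on 2 arrays 2. At the low end, in mouse 1057, Krt71 was 6.84 and Krt25 7.10, while Krt73 was 4.88 and Krt28 4.89. At the high end, in mouse 1080, Krt71 was 12.69, Krt25 12.53, Krt26 11.37 and Krt28 11.00. Every member was highest in mouse 1080.

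The members did not stand equally far above the non-anagen mean on the low arrays. On the 3 arrays with the lowest Krt71, from mice 1057, 1014 and 1020, Krt25 lay 1.97, 2.42 and 2.14 above its non-anagen mean and Krt71 lay 1.51, 1.92 and 2.10 above. Krt27 lay 0.99, 1.15 and 1.48 above its mean on the same arrays, and Tchh 1.27, 0.71 and 1.48. Krt26 differed from its non-anagen mean by 0.53, 0.00 and -0.02 there, and Krt28 by 0.47, 0.13 and 0.08. Krt73 differed from its mean by -0.07, 1.16 and 0.61, in between. Krt25 and Krt71 were thus above every non-anagen array on these 3 arrays, while Krt26, Krt28 and Krt73 lay within the non-anagen range. With so few arrays, ordered here by a member's own value, this is a description with no test. Krt26 and Krt28 averaged only 3.91 and 4.41 in non-anagen skin. A small rise may not register at such low values, which was not tested.

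**Figure D2:**
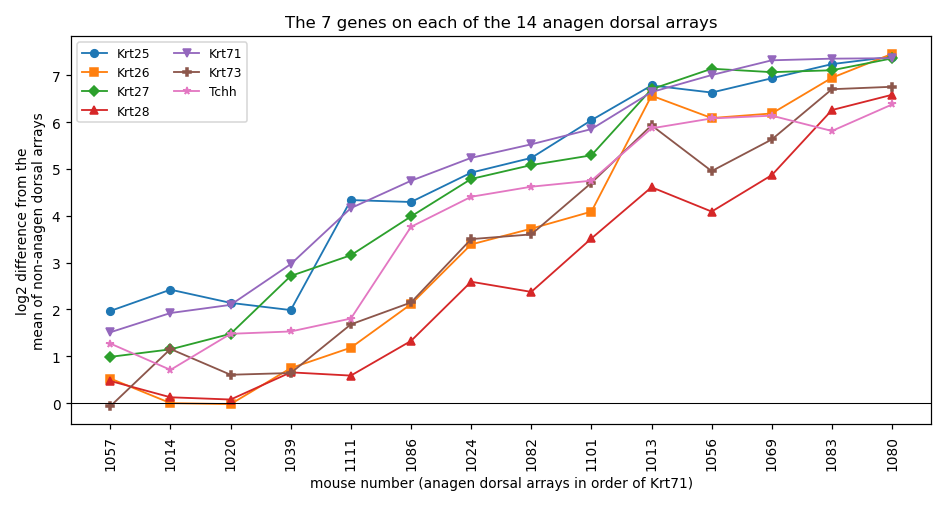
Log2 difference of each member from its mean in non-anagen dorsal skin (vertical axis) on each of the 14 anagen dorsal arrays, in order of Krt71 (horizontal axis, mouse numbers). Krt25 and Krt71 stand 1.5 or more above the non-anagen mean on every array, whereas Krt26 and Krt28 start near 0.

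The spread across mice was compared between groups as each array's absolute distance from its group's median, tested with limma over all genes. This test also used 1 error estimate per gene for all groups, so its errors may be too small where anagen arrays enter. No version with each group's own error was run. In anagen against non-anagen dorsal skin the mean distance was larger for 7 of 7 members, against 5.06% of genes called larger, by 1.29 for Tchh (SE 0.19) to 2.09 for Krt26 (SE 0.16). In tail against non-anagen dorsal skin it was also larger for 7 of 7 members, by 0.30 for Krt25 (adjusted p = 0.00156) to 0.57 for Krt26 (adjusted p = 1.66e-09). Here only 2.58% of genes were called larger and 55.8% were called smaller in tail skin. In tail against anagen dorsal skin it was smaller for 7 of 7 members, with differences from -0.94 for Tchh to -1.52 for Krt26, against 25.4% of genes called smaller. The SD within tail skin was between 0.93 (Krt25) and 1.05 (Tchh), and within anagen skin between 2.06 (Krt25) and 2.77 (Krt26).

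Within tail and within anagen skin the members rose and fell together across mice. Over the 97 tail arrays, Pearson's r for the 21 pairs of members was between 0.89 and 0.99, with a median of 0.94, and Spearman's rho was between 0.91 and 0.98. Over the 14 anagen arrays r was between 0.92 and 0.99, with a median of 0.97, and rho between 0.93 and 0.99. Over the 85 non-anagen arrays r was between -0.11 and 0.48, with a median of 0.23, and rho between -0.16 and 0.50. Values there were low, with an SD between 0.36 (Krt26) and 0.62 (Tchh). So narrow a spread limits r, and a low r cannot show that the genes vary independently. The closest tail pair was Krt25 with Krt71, and the loosest Krt28 with Tchh.

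The p-values came from two-sided permutation tests (100000 permutations) and were adjusted over the 63 relations. In tail skin every pair had p = 1e-05, the smallest that the permutations can give, and in anagen skin the largest p was 2e-05. In non-anagen skin 11 of 21 pairs had an adjusted p under 0.05. Without the 2 arrays farthest from the median, r was between 0.88 and 0.98 in tail, between 0.94 and 0.99 in anagen and between -0.11 and 0.49 in non-anagen skin. Within the larger batch r was between 0.89 and 0.99 in tail and between -0.17 and 0.49 in non-anagen skin. Arrays of a group share a normalization and RNA composition, and other genes of growing hair moved with the members, as given below.

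**Figure D3:**
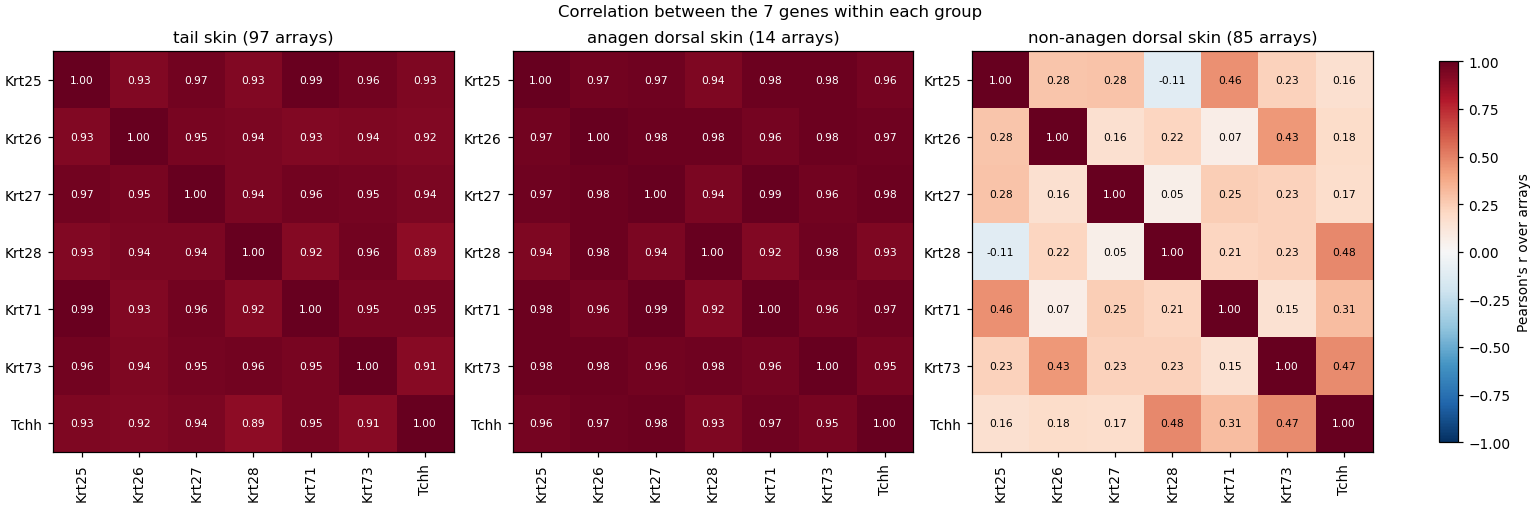
Pearson's r over arrays (colour and printed value) for each pair of members within tail skin, anagen dorsal skin and non-anagen dorsal skin. Values are 0.89 or more for every pair in tail and 0.92 or more in anagen skin, and at most 0.48 in non-anagen skin. The narrow spread of the low non-anagen values limits r there.

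Tail skin held high levels of all members. Krt25 averaged 10.91 ± 0.93 in tail (SD, n = 97) and 5.13 ± 0.51 in non-anagen dorsal skin (SD, n = 85). In limma with sex as a covariate, all 7 members were called higher in tail than in non-anagen dorsal skin, against 3.94% of genes called higher. The differences were 5.78 for Krt25 (SE 0.13), 5.72 for Krt71, 4.37 for Krt27, 4.30 for Krt73, 3.45 for Tchh, 2.76 for Krt26 and 2.47 for Krt28 (SE 0.14), and all 7 calls held with each group's own spread (3.94% of genes). Shifting every array to the same median moved the median difference of all genes to -0.21, against -0.00 as deposited, far less than any member's difference.

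Tail and anagen dorsal skin were then compared at the members' high levels. No member was called, against 5.02% of genes called in either direction. Krt25 was 0.92 higher in tail skin (adjusted p = 0.000737), Krt73 0.90 higher (adjusted p = 0.00233) and Krt71 0.75 higher (adjusted p = 0.00549), each short of the 2-fold limit. Krt26 differed by -0.72 (adjusted p = 0.0217), Tchh by -0.43 (adjusted p = 0.161), Krt28 by -0.23 (adjusted p = 0.435) and Krt27 by -0.19 (adjusted p = 0.545). These adjusted p-values again rest on the shared spread, and 73.7% of all genes passed an adjusted p of 0.05 here. With each group's own spread, 4.89% of genes were called in either direction and 3.22% higher, and the members' adjusted p-values were between 0.170 (Krt25) and 0.791 (Krt27), and with the difference taken within each of 14 mice (the replicate block) between 0.221 (Krt26) and 0.686 (Krt71). The 95% interval with each group's own spread ran from -0.30 to 2.10 for Krt25 and from -2.35 to 0.87 for Krt26, so that neither equality nor a difference of over 2-fold is shown. Without mouse 1080, Krt25 (1.15) and Krt73 (1.18) passed both limits in limma.

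The levels of Krt26 and Tchh relative to Krt71 differed between the tissues on average, though for Krt26 not over the whole range of Krt71. Krt71 was added to the limma fit of tail and anagen arrays, an analysis added after the data had been seen. With the same slope for both tissues, Krt26 was lower in tail skin at equal Krt71 (a difference of -1.54, SE 0.13, adjusted p = 5.27e-20). Tchh was lower by a difference of -1.21 (SE 0.10, adjusted p = 3.05e-20). These 2 members were called, against 1.82% of the 18819 other genes called lower. Krt27 differed by -0.99 (adjusted p = 4.18e-22) and Krt28 by -0.95 (adjusted p = 1.83e-10), just short of the 2-fold limit. Krt25 differed by 0.19 (adjusted p = 0.00299) and Krt73 by 0.12 (adjusted p = 0.324). The fit assumes the same slope on Krt71 in both tissues, and its errors again rest on a spread shared by the groups. For Krt26 the slope was 1.01 in tail (SE 0.04) and 1.25 in anagen skin (SE 0.10), and for Tchh 1.08 (SE 0.04) and 0.96 (SE 0.07). Batch and tissue cannot be told apart in this comparison.

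**Figure D4:**
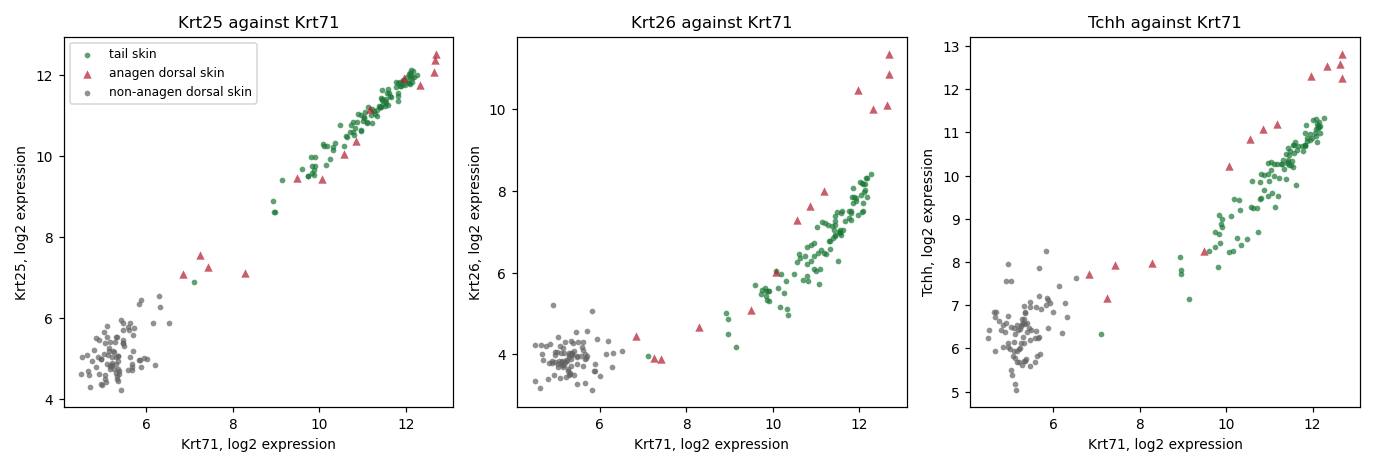
Log2 expression of Krt25, Krt26 and Tchh (vertical axes) against Krt71 (horizontal axes), 1 point per array, in tail, anagen dorsal and non-anagen dorsal skin. Tail and anagen arrays share a line for Krt25, while at high Krt71 the anagen arrays lie above the tail arrays for Krt26 and Tchh.

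No correlation between the levels in tail skin and those in dorsal skin of the same mouse passed the test. With values adjusted for sex and batch within tissue, r between the tissues was between -0.17 and 0.10 over the 82 mice whose dorsal skin was non-anagen and between -0.29 and -0.13 over the 14 anagen mice. The smallest of the 14 permutation p-values, two-sided, was 0.133 (Krt26, non-anagen mice), and the smallest adjusted p was 0.697. Spearman's rho was between -0.19 and 0.06 in the non-anagen and between -0.19 and -0.07 in the anagen mice. In the anagen mice r was between -0.60 (Tchh) and 0.052 (Krt26) without the 2 mice farthest from the median of the dorsal value, and between -0.08 and 0.11 without mouse 1080, so that these 14 mice do not settle the size or the sign of a relation.

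The tails of mice with anagen dorsal skin were set against those of mice with non-anagen dorsal skin. Krt27 averaged 8.85 ± 1.24 in the 14 tails of anagen mice and 9.50 ± 0.97 in the 82 tails of non-anagen mice (SD). The limma differences were between -0.69 (Krt27) and -0.56 (Krt25), with unadjusted p-values between 0.0156 and 0.0482 and an adjusted p of 0.9996 for each. No gene was called by limma at an adjusted p under 0.05, and 796 genes (4.23%) had an unadjusted p under 0.05. Without mouse 1080 the members' differences were between -0.45 (Krt27) and -0.28 (Krt25). The 7 members are strongly correlated in tail skin, so their shared sign is not 7 independent observations. The anagen difference in dorsal skin was larger than that between these tails for all 7 members in limma, against 0.77% of genes, and for 4 members, against 0.0744%, when taken within each mouse with each group's own spread.

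Mouse 1080 stood at opposite ends in its own tissues. Its dorsal array was the highest anagen array for all 7 members, with Krt71 at 12.69 and Tchh at 12.83. Its tail array was the lowest tail array for every member except Krt28, with Krt71 at 7.11, Krt25 at 6.89 and Tchh at 6.35. The tissue labels of both arrays fitted the body position genes: Hoxd11 was 9.50 on the tail and 5.39 on the dorsal array, against a range of 9.19 to 9.93 over all tail and 4.50 to 5.50 over all anagen arrays. Krt84, a hair keratin that is high in tail skin, was 12.94 on this tail array, within the tail range of 12.78 to 13.27. Krt72, the sheath keratin gene between Krt71 and Krt73, was 5.01 in this tail and 11.76 in this dorsal skin. Among the other 96 tails, 79 had all 7 members above the highest non-anagen array, 10 had 6, 3 had 5 and 4 had 4.

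**Figure D5:**
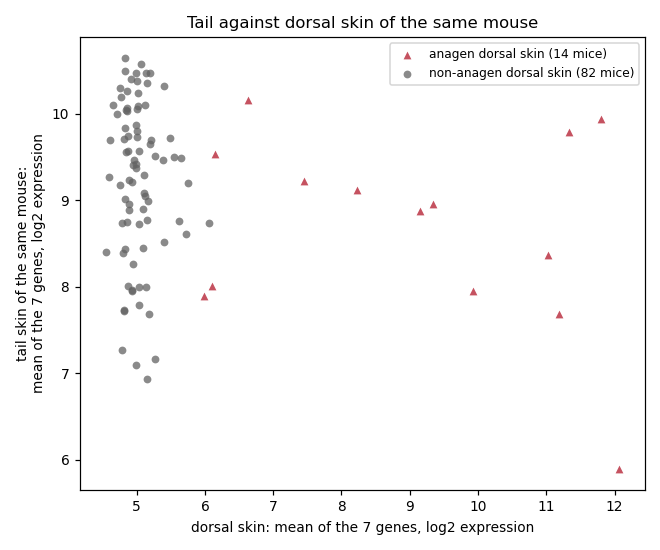
Mean log2 expression of the 7 members in tail skin (vertical axis) against that in dorsal skin of the same mouse (horizontal axis), for the 14 anagen and the 82 non-anagen mice. Mouse 1080 is the point at the lower right, with a tail mean of 5.89 and a dorsal mean of 12.07.

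No member was called between the sexes in any group, where 2.84% of genes were called in tail, 0.0478% in anagen and 12.3% in non-anagen skin at an adjusted p under 0.05. In tail skin the female minus male differences were between 0.34 (Tchh) and 0.60 (Krt28), and none passed the threshold. Krt28 averaged 7.18 ± 1.03 in 48 female and 6.59 ± 0.86 in 49 male tails (SD), a difference of 0.60 (SE 0.19, limma adjusted p = 0.0686). In anagen dorsal skin the female minus male differences were between -0.21 (Krt71) and 0.64 (Krt26), with SEs between 0.99 and 1.32 so that several-fold differences in either direction lie within the intervals. The sex difference itself differed between tail and non-anagen dorsal skin for 1 of 7 members, Krt28, by 0.67 (limma adjusted p = 0.0391), a count near the background of 9.09% of genes called.

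Other genes of the sheath and of the hair were examined as lists, chosen from textbook roles. Of 15 other inner root sheath genes measured, 4 were called higher in anagen than in non-anagen dorsal skin in limma, where 0.68% of all genes were: Krt72 by 3.45, S100a3, a calcium-binding protein of the hair cuticle, by 2.37, Padi3, which citrullinates trichohyalin, by 2.29, and Padi1 by 1.50. With each group's own spread only S100a3 was called, and the sheath keratin Krt72 was not. The median difference of this list was 0.28, against -0.02 for all genes. Krt74, the type II keratin of Huxley's layer in human follicles, differed by 0.82 (adjusted p = 7.34e-06), under the 2-fold limit. The regulators Gata3 and Cux1 differed by -0.22 and 0.28, and Gata3 was high in all groups, at 10.12 in tail, 10.80 in anagen and 11.01 in non-anagen skin.

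In tail against anagen dorsal skin, where 3.33% of genes were called higher and 1.69% lower, 3 of these 15 genes were called higher: Tgm3, a transglutaminase that cross-links trichohyalin, by 3.25, S100a3 by 1.53 and Tgm1, the epidermal transglutaminase, by 1.10. Ovol1, a transcription factor of epidermis and hair, differed by 0.92. Padi3 differed by -0.08 between tail and anagen skin (adjusted p = 0.787) and Krt72 by -0.83. Padi3 followed the members closely over tail arrays (r = 0.98), while Tgm3, at 11.39 in tail skin, had r of -0.04 there. Over the 14 anagen arrays r was 0.97 for Padi3 and 0.70 for Tgm3.

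Of 12 cross-linking and citrullination enzymes, 4 were called higher in anagen than in non-anagen dorsal skin in limma (Padi3, Padi1, Tgm6 by 1.16 and Padi4 by 1.05), against 0.68% of all genes, and 0 with each group's own spread. Tgm6 was called higher in tail than in anagen skin, by 2.37, and Tgm7 lower, by a difference of -1.60. Of 4 S100-fused proteins encoded beside Tchh, Crnn was called higher in anagen skin by 3.54 and Tchhl1 by 2.26 in limma, neither with each group's own spread. Rptn differed by 0.23 and Flg2, of the epidermal barrier, by -0.46. Flg2 was called lower in tail than in anagen skin (a difference of -1.74) and Rptn higher (2.14).

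The keratin genes on the outer side of the members on the chromosomes, Krt24, Krt10, Krt5 and Krt2, were not called in anagen against non-anagen skin. Krt24, next to Krt25, differed by -0.33 in anagen against non-anagen dorsal skin (adjusted p = 0.118) and was called higher in tail than in non-anagen skin, by 4.36. Krt10, next to Krt28 and a keratin of differentiating epidermis, differed by -0.19 and by -0.06 in the same comparisons. On chromosome 15, Krt5, the basal epidermal keratin next to Krt71, differed by -0.00 and 0.12. Krt2, next to Krt73, differed by -0.24 and 7.59. Of 15 listed keratins that were neighbouring or epidermal, 0 were called in anagen against non-anagen skin. The largest differences there were those of Krt78 (-0.37), Krt24, Krt1 (-0.32) and Krt77 (-0.25). In tail against anagen skin 3 were called higher and 3 lower, against 3.33% and 1.69% of all genes. The largest differences were those of Krt2 (7.83), Krt77 (-5.76), Krt24 (4.70) and Krt23 (-1.34).

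Keratins of the hair shaft were measured by 11 genes. In anagen against non-anagen skin 9 were called higher in limma, against 0.68% of all genes, led by Krt33a (4.03), Krt86 (3.45), Krt31 (3.27) and Krt33b (1.89), and only Krt33a with each group's own spread. In tail against anagen skin 10 were called higher, against 3.33% of all genes, with a median difference of 1.63. With each group's own spread 7 were called higher, against 3.22% of all genes. The largest differences were those of Krt84 (6.87), Krt36 (6.73), Krt35 (1.95) and Krt31 (1.89). Of 16 regulators of the hair matrix, 2 were called higher in anagen skin in limma, against 0.68% of all genes, Prr9 (3.40) and Dlx3 (1.01), and 0 with each group's own spread, and Hoxc13 (0.92) and Msx2 (0.85) came next. In tail against anagen skin 4 regulators were called higher, against 3.33% of all genes, namely Foxn1 (1.94), Trps1 (1.46), Hoxc13 (1.42) and Prr9 (1.31). All of these but Prr9 were also called with each group's own spread, against 3.22% of all genes. Of 5 companion layer keratins 0 were called in anagen skin (Krt16 at 0.50, Krt75 at 0.47, Krt6a at 0.44 and Krt17 at 0.20). Krt6b (2.08) and Krt16 (1.64) were called higher in tail than in anagen skin, where 3.33% of all genes were.

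The genes most like the members across mice were found by Pearson's r with the mean of the 7, as a description. Over the 97 tail arrays they were Padi3 (0.98), Vsig8, Dsg4, Lyg2, Crnn, Lrrc15, Gprc5d, Krtap24-1, Krt75 and Krt82, with r of at least 0.96. Over the 14 anagen arrays they were Krtap11-1 (0.99), Gjb2, Gprc5d, Crnn, Gm10228, Krtap14, Ctse, Krtap9-3, Krt33a and Krtap5-4, with r of at least 0.97. Crnn and Gprc5d were the 2 genes in both lists. Krt75, the companion layer keratin, followed the members in tail skin (0.96) although its mean differed by only -0.02 between tail and anagen and by 0.47 between anagen and non-anagen skin. Gm10228 had r of -0.02 in tail skin.

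Some markers of other cell types also moved with the members across mice, several in 1 group only, and their part in these results was not tested. The mean of 8 cortex and cuticle keratins, of a list of 10, had r of 0.97 with the mean of the members in tail and 0.96 in anagen skin, and ranged from 5.96 to 11.14 in tail, from 5.68 to 11.08 in anagen and from 5.24 to 6.22 in non-anagen skin. In anagen skin the 5 epidermal markers had r of -0.81 and ranged from 11.50 to 12.45, against 11.65 to 12.44 in non-anagen skin. The 4 melanocyte markers had r of 0.65 in anagen skin, 0.43 without the 2 arrays farthest from the median, and ranged from 5.53 to 8.51 there, against 5.0 to 6.96 in non-anagen skin. The 4 white adipocyte markers had r of 0.60 and the 3 T cell markers r of -0.60 in anagen skin, 0.43 and -0.41 without the 2 arrays farthest from the median. The epidermal, melanocyte, white adipocyte and T cell markers had r of -0.20, 0.04, 0.28 and 0.03 in tail skin. In tail skin the 6 mitotic markers had r of 0.39, the 3 endothelial markers 0.44 and the 4 posterior position genes 0.40. The values of r in anagen skin were 0.07, 0.23 and -0.01 in the same order. Krt75, the companion layer marker, had r of 0.96 in tail and 0.75 in anagen skin. The 4 skeletal muscle markers had r of 0.24 in tail and -0.08 in anagen skin, and 4 fibroblast markers 0.22 and 0.07.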

How the data were processed

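Total RNA (1 ug per array) was labelled for Affymetrix mouse arrays, per the labels' protocols. The deposited values are log2 expression made by the authors with RMA, per the submitters' processing notes; neither its version nor any later adjustment is given in the sources used here. Of 35556 probe sets, 21218 named 1 gene and were used, with the highest mean kept for 1386 genes that had several, which left 18820 genes and no filter on low values. Some genes, such as Flg, were not analysed here. No 2 arrays were identical, and the number of arrays limits the precision.

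Groups, sex, batch and mouse number came from the labels. R 4.3.3 and limma 3.58.1 (moderated tests, Benjamini-Hochberg over all genes) gave the differences, with sex and, within tissue, batch as covariates. An unequal-variance test of every gene was added after the data had been seen, because the spread differed between groups. The limma steps were tested on simulated data. For differences of means, the simulation gave every group the same spread per gene, so it does not cover the unequal spread of the members. Correlations used Python 3.11.15 and scipy 1.17.1. The mouse number pairs the tissues, since both came from the same animal; over all genes the median correlation of a mouse's tail with its dorsal deviations was 0.0814 in 14 anagen and 0.164 in 82 non-anagen mice. Promoters came from RefSeq (GRCm38.p6), matched by symbol for 7 of 7 members.

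The 7 members, the gene lists and the rule for named genes (from each list the 4 largest differences in anagen against non-anagen and in tail against anagen skin, the 10 genes most like the members in each of tail and anagen skin, and Gata3, Cux1, Padi3, Tgm3, Krt72 and Krt74) were chosen with earlier results of these data known. Alternatives covered array scaling, probe set choice, a filter on low values, batch, sex, array weights, the mouse as a block and leaving out arrays.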

Additional observations from a re-analysis of the deposited data

Results flagged for a closer look

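The anagen minus non-anagen difference in dorsal skin was also set against the difference between tails of the same mice. The second was subtracted from the first and tested as an interaction in limma. This called 7 of 7 members, against 0.77% of genes called higher. Tails carried no hair cycle label of their own, so this is no comparison of anagen between the tissues. Much of it restates the dorsal difference, which alone was 4.97 for Krt71. The interaction was 5.54 for Krt71, 5.41 for Krt25, 5.24 for Krt27, 4.52 for Tchh, 4.10 for Krt73, 4.06 for Krt26 and 3.28 for Krt28. Taken within each mouse and with each group's own spread, it called 4 members, against 0.0744% of genes: Krt71 (5.53, adjusted p = 0.0158), Krt25 (5.41, adjusted p = 0.0163), Krt27 (5.21, adjusted p = 0.0316) and Tchh (4.46, adjusted p = 0.0473). Krt73 (adjusted p = 0.0903), Krt26 and Krt28 (adjusted p = 0.138 each) were not called.

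The female minus male difference of Krt28 was larger in tail than in non-anagen dorsal skin by 0.67 (SE 0.22, limma interaction, adjusted p = 0.0391). It was the only one of 7 members called, a count near the background of 9.09% of genes, and the other members had adjusted p-values between 0.162 (Krt27) and 0.587 (Krt25). The difference for Krt28 was 0.60 in tail and -0.08 in non-anagen dorsal skin, and neither was called on its own.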

How the results depend on the processing

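The treatment of the spread mattered most. With each group's own spread, anagen against non-anagen skin called 4 members, 18 genes higher and 0 lower, against 7, 128 and 1 with a shared spread. That dorsal difference less the difference between tails of the same mice called 4 members and 14 genes with the replicate block, against 7 and 145. The members' tail against non-anagen calls held under every alternative run. Between tail and anagen skin 0 members were called, but 2 in females only, 2 without mouse 1080, 2 at equal Krt71 and 0 to 2 when 1 anagen array was left out; 2 resulted without mouse 1013, 1056, 1069, 1080, 1083 or 1101. Krt27 there turned to 0.021 in females and 0.059 without mouse 1080, and ranged from -0.47 to 0.021 without 1 array. Krt28 turned to 0.077 without mouse 1080, and ranged from -0.44 to 0.059 without 1 array. With the mouse as a replicate block, limma called 7 members in tail against non-anagen skin and 0 in tail against anagen skin, and changed no other call. Genes lower in anagen skin numbered 3 in females, 0 with array weights, 0 without mouse 1080 and 0 to 2 without 1 array. Shifting arrays to the same median gave 489 genes higher and 620 lower in tail than non-anagen skin, against 741 and 381, and 408 and 494 in tail than anagen skin, against 627 and 318. For sex, the shift called 1 member in tail (Krt28) and 445 genes lower, leaving out the 5 arrays least like their group also called 1, and the larger batch gave 774 genes higher in female non-anagen skin. Small sex differences turned: in non-anagen skin Krt71 to 0.0050 (shift) and Krt26 to -0.026 (larger batch), and in anagen skin Krt25 to -0.0765 (without 5 arrays). Without those arrays the spread was called larger in anagen than non-anagen skin for 491 genes, against 953, and smaller in tail than anagen skin for 2241, against 4772. The median correlation between tissues in anagen mice, -0.22, was -0.47 without the 2 farthest mice and 0.058 without mouse 1080. Except where fewer samples entered, the cause was not tested. Low values near the bottom of the array scale have no known background level, which limits the non-anagen values.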
